A study of Mus musculus with 37 samples.

Results

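The genes described here are 10 markers of reactive astrocytes that code for no filament protein: Serpina3n, Lcn2, Timp1, Cp, Osmr, Cd44, S1pr3, Steap4, Hspb1 and Aspg. They were chosen by name from the pan-reactive set, and all 10 were found in the deposited tables by their Ensembl identifiers. Astrocytes were isolated with beads against the surface antigen ACSA-2 from the hippocampus of adult male mice, 4 months after controlled cortical impact (CCI) over the right parietal cortex or after sham surgery. PTE+ mice had recurrent epileptic episodes on EEG after the injury and PTE- mice had the same injury without them. Sham mice had the craniectomy and electrodes without impact. The sample labels call the animals wild type and name the strain CD31, whereas the study's methods name CD1, and no group carried a transgene. The ipsilateral hippocampus (the injured side) and the contralateral one gave separate libraries, made without pooling of mice by SMART-Seq V4, a method that amplifies the cDNA of very small RNA inputs. There were 5 sham, 10 PTE- and 5 PTE+ libraries on the contralateral side and 5, 8 and 4 on the ipsilateral side, from 20 mice, of which 17 had both.

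Astrocytes respond to injury, inflammation and seizures by a change of state called reactivity, in which they enlarge and induce genes of the cytoskeleton, of the acute phase response and of the extracellular matrix. The pan-reactive genes are those induced after different kinds of insult, whereas the sets called A1 and A2 follow neuroinflammation and ischaemia, respectively. Much of the response runs through cytokines of the interleukin 6 family, which bind receptors that share the subunit gp130 (Il6st) and activate the kinases JAK and the transcription factor STAT3. Oncostatin M is one of these cytokines, and Osmr is its receptor.

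The promoters of Steap4 and Hspb1 are shown because they were the members whose promoters held matches to STAT or heat shock motifs, and the 2 genes stood apart in level, Hspb1 being the highest of the 10 members and Steap4 among the lowest. Each runs over the 250 bases before the RefSeq start of transcription in build GRCm38.p6, from 5′ to 3′ on the gene's strand. The capitals mark the matches to TTCNNNGAA, a motif of STAT factors, and to GAANNTTC or TTCNNGAA, a pair of units of the heat shock element. The Steap4 window at chr5:7960222-7960471 on the plus strand and the Hspb1 window at chr5:135887669-135887918 on the plus strand.
Steap4: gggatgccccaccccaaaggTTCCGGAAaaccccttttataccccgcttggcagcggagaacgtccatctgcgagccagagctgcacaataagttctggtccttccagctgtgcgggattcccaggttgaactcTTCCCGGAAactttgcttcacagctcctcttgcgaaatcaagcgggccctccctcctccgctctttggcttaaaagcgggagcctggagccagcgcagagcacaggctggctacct
Hspb1: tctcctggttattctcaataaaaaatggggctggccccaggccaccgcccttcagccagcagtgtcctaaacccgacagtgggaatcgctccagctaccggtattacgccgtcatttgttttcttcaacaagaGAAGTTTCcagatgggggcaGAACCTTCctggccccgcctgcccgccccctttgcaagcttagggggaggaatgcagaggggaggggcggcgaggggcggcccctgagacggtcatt

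Steap4 held the only STAT match among the 10 members, 116 bases before its start, and 1 heat shock match 230 bases before it. Hspb1, a heat shock gene, held 2 heat shock matches, 117 and 97 bases before its start. Cp and Osmr each held 1 match to TGANTCA, a motif of AP-1 factors, 177 bases before the start and 4 bases after it. The search covered 300 bases per promoter on both strands, and the motifs did not overlap at these matches. Over all 32851 promoters of the table, 8.3% held the STAT motif, 15.06% the heat shock motif and 7.81% the AP-1 motif, so that such matches are common. The data hold no measure of binding at these sites.

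Libraries held between 25371887 and 59846479 counts. All 10 astrocyte markers were present, with summed levels between 10780 and 36210 counts per 1000000 (CPM, scaled by TMM, edgeR's correction for library composition). However, libraries differed in how many genes they captured. Of 6953 genes with a median over 1000 counts, 26 of the 37 libraries had fewer than 50 at 3 counts or less, which is taken here as the limit of detection, whereas 6 libraries had over 400: contralateral PTE- a9_14 and a9_20, contralateral sham a8_16, ipsilateral PTE- a8_11 and a8_14 and ipsilateral sham a9_9. The members were lost along with these genes. In ipsilateral PTE- a8_11, which had 2234 such genes, only Hspb1 and S1pr3 exceeded 3 counts, while all 10 members did in the contralateral library of the same mouse. These 6 libraries are called below the libraries that lost genes. A member listed at 0 in 1 of them cannot be told apart from a gene that the library did not capture. Smaller losses occurred in contralateral PTE- a8_14 (342 such genes), a8_9 (293) and a9_15 (161), ipsilateral PTE+ a9_19 (258) and ipsilateral PTE- a9_16 (76). The same limit holds for a 0 there, although these were not among the 6. Values without the 6 libraries, an alternative chosen after seeing the data, are given beside the results they touch. Between hemispheres, this alternative left out both sides of the mice that these libraries came from. A lower value in a bulk sample can come from fewer cells of a type or from less RNA per cell, which cannot be told apart.

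**Figure D1:**
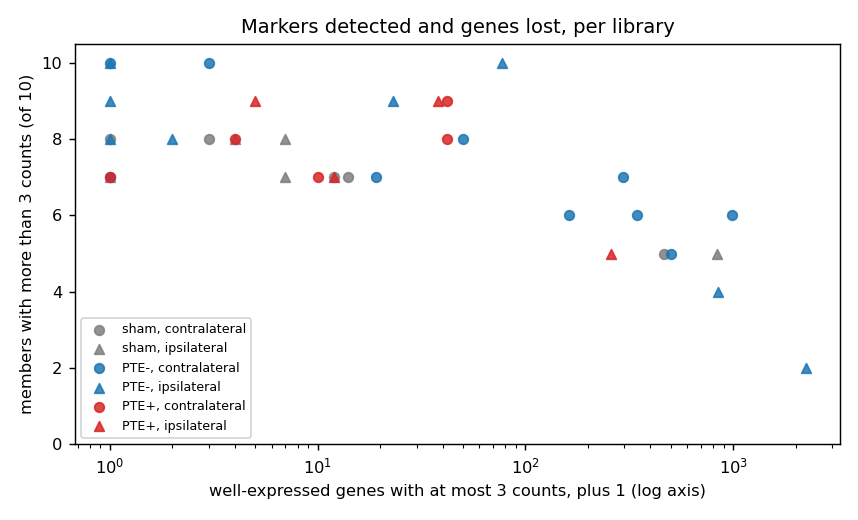
Number of the 10 members with more than 3 counts (vertical axis) against the number of 6953 well-expressed genes with at most 3 counts, plus 1 (log axis), for each of the 37 libraries, with circles for contralateral and triangles for ipsilateral. The 6 libraries with over 400 such genes had 2 to 6 members above the limit, the lowest being ipsilateral PTE- a8_11.

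The 10 members fell into genes present in nearly every library and genes present in few. In transcripts per 1000000 (TPM), which corrects for transcript length and is used for every comparison between genes, Hspb1 had the highest median, 152 over the 37 libraries, and was the only member over 3 counts in all 37. Serpina3n followed with a median of 63.1 TPM, S1pr3 with 44.5, Cp with 26.0 and Aspg with 21.2, and these were detected in 34 or 35 libraries each. Cd44 and Osmr were lower, at 3.84 and 3.68 TPM, and were each detected in 31 libraries. Steap4, Lcn2 and Timp1 had a median of 0 TPM and were detected in 16, 11 and 6 libraries. Among neighbours in this order, only the step from Aspg to Cd44 exceeded its own spread, with a mean difference of 2.18 ± 1.73 (SD) in log2(TPM + 1) over the 37 libraries. The other neighbours did not differ beyond their spread: Hspb1 exceeded Serpina3n in 31 of 37 libraries, Cp exceeded Aspg in 22 and Cd44 exceeded Osmr in 20.

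**Figure D2:**
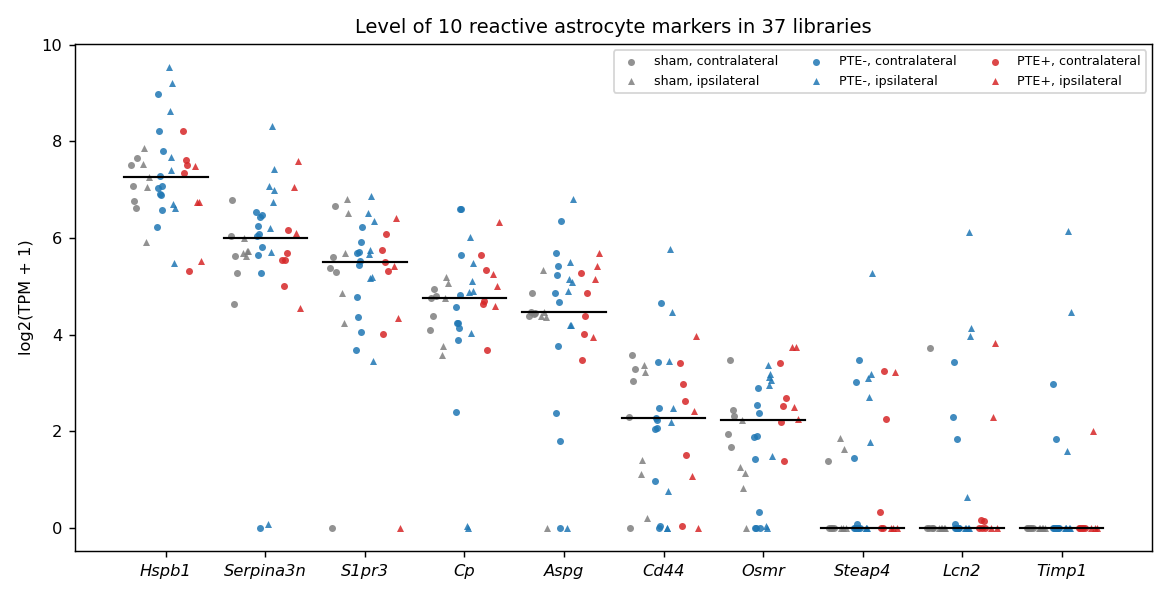
log2(TPM + 1) of the 10 members in all 37 libraries, ordered by median, with circles for contralateral and triangles for ipsilateral libraries, colours for sham, PTE- and PTE+, and a black bar for the median of all libraries. Hspb1 sits highest (median 152 TPM), 5 members lie above 20 TPM, and Steap4, Lcn2 and Timp1 lie at 0 in most libraries.

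None of the members passed an adjusted p of 0.05 in any of the 10 comparisons by edgeR's quasi-likelihood test. Among all genes tested, this threshold was passed by 0.00683% in contralateral PTE+ versus PTE- (1 gene) and by 0% in every other comparison. At an unadjusted p under 0.05, 0 of 8 tested members passed in each contralateral comparison, beside 2.21% of all genes for PTE+ versus PTE-, 1.54% for PTE- versus sham and 1.23% for PTE+ versus sham. Lcn2 and Timp1 were too low there to be tested. On the ipsilateral side 10 members were tested, and 1 passed for PTE+ versus PTE- (all genes, 1.75%), 2 for PTE- versus sham (1.58%) and 1 for PTE+ versus sham (1.66%). The members that passed against sham were Lcn2 and Timp1, which were at 0 in all ipsilateral sham libraries and met the filter on low counts only through libraries of injured mice, so that these counts are no support for a difference. Between hemispheres, 0 of 10 passed in PTE+ mice (2.93%), 0 in PTE- mice (4.56%) and 1 in sham mice (2.05%). The difference between sides was itself compared between injured and sham mice, where 1 of 10 passed (2.4%). Limma, on voom weights and on log2(TPM + 1), also called no member after adjustment, while DESeq2 called Lcn2 as the single member in 4 comparisons. DESeq2 called 0.131% of all genes in ipsilateral PTE- versus sham, 0.433% in ipsilateral PTE+ versus sham, 0.795% between the hemispheres of sham mice and 0.775% in the side difference. The comparisons within a hemisphere share their sham, PTE- or PTE+ libraries and are not independent.

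Lcn2, lipocalin 2, is a secreted protein that binds iron-carrying siderophores. It was listed at 0 in all 5 ipsilateral sham libraries. In the 4 ipsilateral PTE+ libraries it was at 0, 1.33, 4.90 and 0 CPM, and in the 8 PTE- libraries it ran from 0 over a median of 0.12 to 32.2 CPM. It was thus over 3 counts in 6 of 12 ipsilateral libraries from injured mice and in 0 of 5 from sham mice, and the groups overlapped at 0. With sham set at the limit of 3 counts per library, the mean level was 88.0-fold higher in PTE- and 24.8-fold higher in PTE+ than in sham. These bounds cover counting error alone. They do not hold if a listed 0 is a gene that was not captured, which cannot be told in sham a9_9, a library that lost genes. Without the highest library (a9_13 of PTE- and a9_18 of PTE+) the bounds were 27.2-fold and 7.08-fold. The fitted log2 fold changes, which depend on the prior count when a group is at 0, were 11.08 ± 3.72 (SE) for PTE- and 9.25 ± 3.51 for PTE+, with unadjusted p = 0.0098 and 0.0191 and adjusted p = 1.0 in edgeR. An exact two-sided permutation test on log2(CPM + 1) gave p = 0.133 and 0.167, respectively. DESeq2 gave adjusted p = 1.16e-13 for PTE- and 1.20e-08 for PTE+, so that the call depended on the tool. PTE+ and PTE- did not differ detectably in Lcn2, at −1.82 ± 2.69 (SE) on the log2 scale (unadjusted edgeR p = 0.508).

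By the prefix of the mouse names (a8 or a9), a division in the labels whose meaning is not given, Lcn2 was over 3 counts in 5 of 8 ipsilateral libraries from injured a9 mice and 0 of 3 from sham a9 mice. Among a8 mice it was over 3 counts in 1 of 4 and in 0 of 2. When the prefix was added as a covariate, Lcn2 had log2 fold changes of 10.6 for PTE- and 8.23 for PTE+. Of the 6 markers of neutrophils, which store lipocalin 2 in their granules, none (Camp, Ltf, Mmp8, Ngp, S100a8 and S100a9) exceeded 3 counts in any ipsilateral PTE- or PTE+ library. On the contralateral side their sum was 0.78 CPM in PTE- a8_11, where Lcn2 had 93 counts. It was 0 in the other contralateral libraries with Lcn2 over 3 counts.

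Timp1, a secreted inhibitor of matrix metalloproteinases, was detected in injured mice alone, but in few of them. It exceeded 3 counts in 6 of 27 libraries from injured mice, which came from 5 of the 15 injured mice, and was listed at 0 in all 10 sham libraries. On the ipsilateral side it was at 0.64, 28.6 and 7.22 CPM in PTE- mice a9_12, a9_13 and a9_16, at 0.88 CPM in PTE+ mouse a9_17, and at 0 in the other 8 injured libraries. Of the 6 libraries with Timp1, 5 also had Lcn2 and 5 also had Steap4. With sham set at the same limit, the mean ipsilateral level was 72.5-fold higher in PTE- than in sham, or 17.9-fold without a9_13. This bound is restricted to counting error as for Lcn2. The fitted log2 fold change of Timp1 was 10.80 ± 3.88 (SE). Its unadjusted p was 0.0144 in edgeR (adjusted p = 1.0) and 0.324 by the exact permutation test. DESeq2 set its p aside for outlying counts, so that no adjusted p was given. For PTE+ versus sham the bound was 3.49-fold and rested on a9_17 alone. The gene lies inside Syn1 but shares none of its exonic bases in GENCODE vM21. The kit does not keep the strand, so that unspliced Syn1 reads and Timp1 reads cannot be told apart by strand.

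Serpina3n, a secreted inhibitor of serine proteases that is among the most strongly induced genes of reactive astrocytes, averaged 71.9 CPM contralaterally and 71.6 CPM ipsilaterally in sham mice. The 5 ipsilateral sham libraries held 81.9, 92.8, 69.3, 56.5 and 57.5 CPM, the 4 PTE+ libraries 158, 71.8, 221 and 23.7, and the 8 PTE- libraries from 0.076 over a median of 137 to 462. The sham libraries lay close together, whereas 6 of 8 PTE- and 2 of 4 PTE+ libraries lay above every sham library and the lowest of both injured groups lay below them. The log2 fold change was 1.12 ± 0.88 (SE) for PTE- versus sham (unadjusted p = 0.222) and 0.73 ± 0.99 for PTE+ versus sham (p = 0.475), by edgeR. The exact permutation test gave p = 0.951 and 0.651, respectively. Without PTE- a8_11, which had 3 counts of the gene, the PTE- value was 1.34 (unadjusted p = 0.0196). Without the 6 libraries that lost genes it was 1.31 (p = 0.0453), and without a9_13 it was 0.68 (p = 0.448), with adjusted p of 1.0 in each of these edgeR fits. The other Serpina3 genes, such as Serpina3g and Serpina3k, share sequence with it, so that reads may be divided among them. Of the 9 other Serpina3 genes in the tables, the highest median was 0.53 CPM.

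Cp, ceruloplasmin, a ferroxidase that astrocytes carry at the membrane or secrete, overlapped between all groups. Its mean level was 59.2 ± 26.4 CPM (SD, n = 5) in ipsilateral sham, 53.5 ± 38.0 (n = 8) in PTE- and 78.1 ± 37.7 (n = 4) in PTE+ libraries. It was listed at 0 in PTE- a8_14 and had 1 count in PTE- a8_11, which are 2 of the 6 libraries that lost genes. Without these 6 libraries the means were 51.1 ± 22.0 CPM (SD, n = 4) in sham, 71.3 ± 22.2 (n = 6) in PTE- and 78.1 ± 37.7 (n = 4) in PTE+. Cp shares 108 of its 9566 exonic bases with Hps3, whose reads cannot be separated there.

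Osmr, the oncostatin M receptor, was low in most ipsilateral sham libraries and higher in most of the injured ones. The 5 sham libraries held 6.87, 16.3, 0, 2.72 and 4.00 CPM, the 4 PTE+ libraries 43.2, 11.5, 42.9 and 11.6, and the 8 PTE- libraries from 0 over a median of 20.4 to 33.7. All PTE+ libraries exceeded 4 of the 5 sham libraries, and 5 of 8 PTE- libraries exceeded all 5, while the PTE- libraries at or near 0 were a8_11 and a8_14. The log2 fold change was 2.19 ± 1.63 (SE) for PTE+ versus sham (unadjusted p = 0.195, adjusted p = 1.0) and 1.46 ± 1.44 for PTE- versus sham (unadjusted p = 0.322, adjusted p = 1.0), by edgeR. The exact permutation test gave p = 0.0476 for PTE+ versus sham, 1.0 after adjustment over all genes, and p = 0.0556 with a pseudocount of 0.1. Without the 6 libraries that lost genes, the fitted values were 1.87 (unadjusted p = 0.0203) and 1.55 (p = 0.0355), again with adjusted p of 1.0 in edgeR. Among a9 mice the 8 injured libraries ran from 6.25 to 42.9 CPM and the 3 sham libraries from 0 to 4.00, whereas among a8 mice the 4 injured libraries ran from 0 to 43.2 and the 2 sham libraries held 6.87 and 16.3.

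Cd44, the receptor for hyaluronan in the extracellular matrix, was high in 1 library. The 8 ipsilateral PTE- libraries ran from 0 over a median of 8.31 to 135 CPM, the highest being a9_13, beside 4.94, 6.51, 0.53, 17.5 and 14.7 CPM in sham and 3.64, 9.69, 27.4 and 0 CPM in PTE+ mice. These groups overlapped over most of their range. For PTE- versus sham, the log2 fold change was 1.58 ± 1.70 (SE), and 0.35 without a9_13.

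S1pr3, a receptor for sphingosine 1-phosphate, was among the higher members and varied widely in ipsilateral PTE- mice, from 27.1 over a median of 135 to 405 CPM. The ipsilateral sham libraries ran from 63.6 to 296 CPM. In the PTE+ libraries it was at 119, 218, 54.2 and 0 CPM, and the last, a9_19, was also below 3 counts for Cd44, Lcn2, Timp1 and Steap4. The log2 fold change for PTE+ versus sham was −0.87 ± 1.12 (SE), −0.46 without a9_19 and −1.63 without a9_17. Ipsilateral a9_19 had 258 of the 6953 well-expressed genes at 3 counts or less.

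Steap4, a membrane reductase of iron and copper, was detected in 5 of 8 ipsilateral PTE-, 1 of 4 PTE+ and 2 of 5 sham libraries. Its highest level, 72.4 CPM, was in PTE- a9_16, followed in this hemisphere by 15.9 CPM in PTE+ a9_18. The log2 fold change for PTE- versus sham was 2.77 ± 2.58 (SE), or 1.59 without a9_16, and −4.81 with the prefix of the mouse name as a covariate (unadjusted edgeR p = 0.407), so that its direction depended on this term. All 5 ipsilateral PTE- libraries of a9 mice exceeded the limit, at 4.73 to 72.4 CPM, as did 1 of 3 sham libraries, at 3.83 CPM. None of the 3 PTE- libraries of a8 mice did, and 2 of these 3 were libraries that lost genes.

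Hspb1, a small heat shock protein that protects other proteins from aggregation, was the only member with an unadjusted p under 0.05 between PTE+ and PTE- mice. The 4 ipsilateral PTE+ libraries held 70.2, 35.3, 38.6 and 16.7 CPM, and the 8 PTE- libraries ran from 16.2 over a median of 73.3 to 458 CPM, with sham libraries at 91.0, 108, 69.1, 21.5 and 48.1. The PTE+ libraries lay within the range of the PTE- ones, and the 3 highest PTE- libraries were a8_11 (458), a9_13 (269) and a8_14 (178). The log2 fold change for PTE+ versus PTE- was −1.83 ± 0.80 (SE), with an unadjusted p = 0.0336 and an adjusted p = 1.0 in edgeR, and permutation of the labels gave an exact p of 0.202. Leaving out a8_11 gave −1.23 (unadjusted p = 0.0852), leaving out a9_13 gave −1.51 (p = 0.0692), and leaving out the 6 libraries that lost genes gave −1.07 (p = 0.146). Library a8_11 also had the lowest summed astrocyte markers of the ipsilateral side, 10780 CPM, and the highest summed ependymal and choroid plexus markers, 5885 CPM beside a median of 223 in its group. Hspb1 moved with the prefix of the mouse names as well. Among ipsilateral sham mice it was at 91.0 and 108 CPM in a8 mice and between 21.5 and 69.1 in a9 mice, and among PTE- mice its median was 178 in the 3 a8 and 38.1 in the 5 a9 libraries. Adding the prefix as a covariate gave −1.58 (unadjusted p = 0.0359). In PTE- versus sham its log2 fold change was 1.08 ± 0.70 (SE), p = 0.141, or 0.55 without a8_11.

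Aspg, an asparaginase, overlapped between all groups as well. Its mean ipsilateral level was 32.4 ± 25.9 CPM (SD, n = 5) in sham, 47.2 ± 42.8 (n = 8) in PTE- and 45.7 ± 22.7 (n = 4) in PTE+ libraries. Against sham, the log2 fold change was 0.55 ± 1.22 (SE) for PTE- and 0.50 ± 1.40 for PTE+. It was listed at 0 in PTE- a8_11 and sham a9_9, both among the libraries that lost genes. Without the 6 libraries the log2 fold changes were 0.53 for PTE- and 0.18 for PTE+, and the mean was 40.4 ± 21.4 CPM (SD, n = 4) in sham and 58.5 ± 43.4 (n = 6) in PTE- mice.

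**Figure D3:**
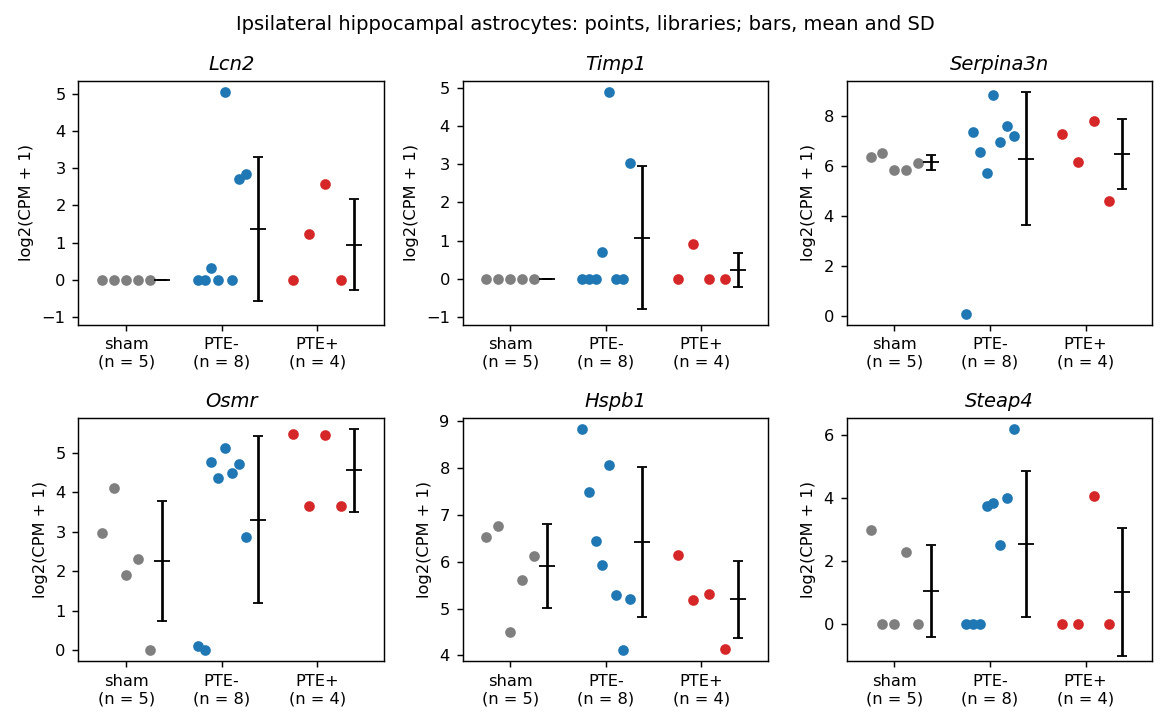
log2(CPM + 1) of 6 members in the ipsilateral libraries of sham, PTE- and PTE+ mice, with a point for each library and the mean ± SD beside it. Lcn2 and Timp1 lie at 0 in the 5 sham libraries, the highest point of Lcn2 (32.2 CPM) and Timp1 (28.6 CPM) is PTE- a9_13, and the lowest Serpina3n point (0.076 CPM) is PTE- a8_11.

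On the ipsilateral side most members had higher fitted levels in PTE- mice than in the other groups. In PTE- versus sham, 9 of 10 members had a positive log2 fold change and their median was 1.29, beside a median of 0.02 over all genes, of which 51.5% were positive. Lcn2 and Timp1 are among the 9 and could not be lower than sham libraries at 0, which holds for PTE+ versus sham as well. The median was 0.68 without a9_13, 1.51 without a8_11 and 1.43 without the 6 libraries that lost genes. In PTE+ versus sham, 8 of 10 were positive with a median of 0.61, beside 0.00 over all genes, of which 50.1% were positive. In PTE+ versus PTE-, 8 of 10 were negative with a median of −1.15, beside −0.01 over all genes, of which 49.3% were positive. Signs depended on the scale. By means of log2(CPM + 1), S1pr3 (−0.10) and Cp (−1.19) were lower in PTE- than in sham and the other members higher. On the same scale, Serpina3n (0.17), Aspg (0.60), Osmr (1.26) and Cp (1.60) were higher in PTE+ than in PTE- and the other members lower. Steap4 (−0.03), Cd44 (−0.24), Hspb1 (−0.71) and S1pr3 (−2.15) were lower in PTE+ than in sham and the others higher. Without the 6 libraries these medians were 0.59 and −0.92, and without a9_13 the PTE+ versus PTE- median was −0.08. That library had the highest ipsilateral level of 5 members (Serpina3n, Lcn2, S1pr3, Timp1 and Cd44), and its mouse exceeded 3 counts for all 10 members on both sides.

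**Figure D4:**
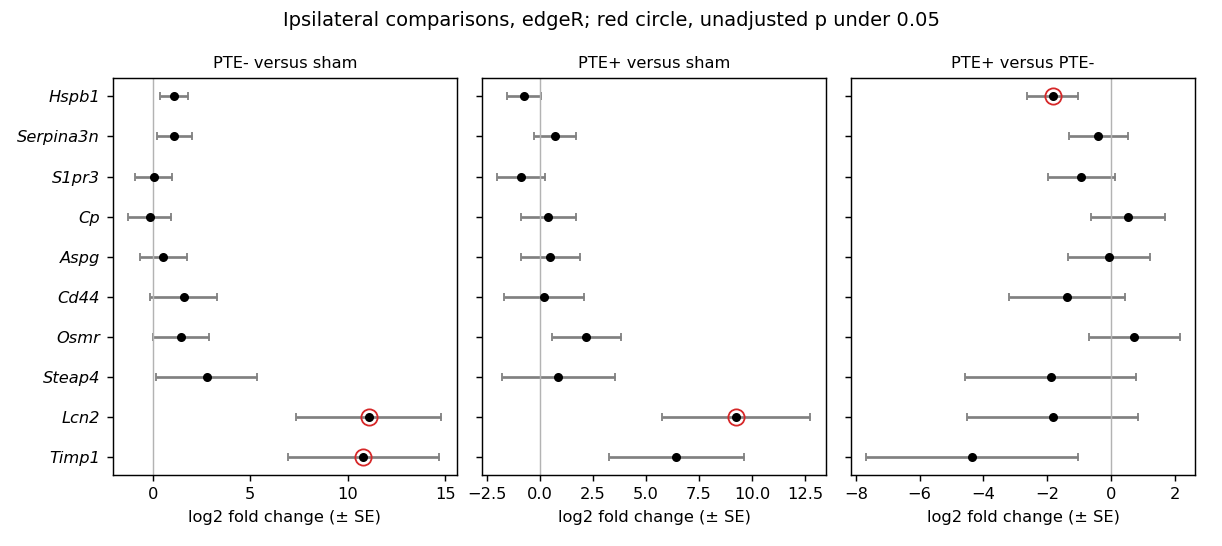
Fitted log2 fold changes ± SE of the 10 members in the 3 ipsilateral comparisons, by edgeR, with a red circle where the unadjusted p was under 0.05. Lcn2 and Timp1 lie far to the right of the other members against sham, where their sham libraries are all at 0, and Hspb1 is circled at −1.83 in PTE+ versus PTE-.

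On the contralateral side no member differed between groups by more than the spread between mice. The median log2 fold change of the 8 tested members was −0.18 for PTE+ versus PTE-, 0.36 for PTE- versus sham and −0.00 for PTE+ versus sham, beside −0.05, 0.07 and 0.03 over all genes. Without the 6 libraries that lost genes these medians were −0.13, −0.08 and 0.16, so that the sign for PTE- versus sham depended on them. With all libraries, the smallest unadjusted p of a member was 0.326 by edgeR. Serpina3n averaged 71.9 ± 47.9 CPM (SD, n = 5) in sham, 87.6 ± 52.9 (n = 10) in PTE- and 58.7 ± 15.5 (n = 5) in PTE+ mice. Hspb1 averaged 62.1 ± 24.5, 82.7 ± 55.8 and 70.7 ± 37.3 CPM in the same order. S1pr3 averaged 125 ± 89.4, 118 ± 50.6 and 122 ± 44.7 CPM, and Cp 43.0 ± 14.5, 63.3 ± 54.6 and 59.2 ± 31.9. Aspg averaged 28.9 ± 5.08, 43.2 ± 39.95 and 29.7 ± 12.4 CPM. Cd44 averaged 12.1 ± 7.88, 11.8 ± 12.2 and 9.63 ± 9.35 CPM, and Osmr 17.1 ± 12.2, 8.96 ± 8.47 and 15.9 ± 12.25. Lcn2 exceeded 3 counts in 1 of 5 sham, 3 of 10 PTE- and 1 of 5 PTE+ libraries, the last with 4 counts, and did not exceed 4.70 CPM in any. Timp1 did so in PTE- a8_11, at 4.75 CPM, and a9_13, at 1.04 CPM, alone. Steap4 did so in 1 of 5 sham, 4 of 10 PTE- and 3 of 5 PTE+ libraries. Its log2 fold change versus sham was 2.55 ± 2.64 (SE) for PTE- and 2.74 ± 2.85 for PTE+ (unadjusted edgeR p = 0.346 and 0.347). S1pr3 exceeded 3 counts in 4 of 5 sham, Cd44 in 4 of 5 sham and 8 of 10 PTE- libraries. Serpina3n and Aspg did so in 9 of 10 and Osmr in 7 of 10 PTE- libraries. The other groups had these members in every library.

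Between the hemispheres, all 10 members had a positive fitted log2 fold change towards the injured side in PTE- mice, but counts of mice were mixed. The median log2 fold change was 0.81, beside −0.03 over all genes, of which 48.0% were positive. It was 0.53 without mouse a9_13 and 1.32 without the mice that had a library that lost genes. Leaving out these mice left 5 PTE-, 4 PTE+ and 3 sham mice. With all mice, the median was 0.43 with 6 of 10 positive in PTE+ and 0.06 with 5 of 10 positive in sham mice. Within PTE- mice, Serpina3n was higher on the ipsilateral side in 6 of 8, Steap4, Cd44 and Osmr in 5, Lcn2, S1pr3, Cp and Aspg in 4, Timp1 in 3 and Hspb1 in 2. By the mean paired difference in log2(CPM + 1), Cp was negative (−0.68), beside a fitted 0.09 ± 0.79 (SE), and the other members were positive. The exact paired permutation test gave p between 0.188 and 0.906 over the members. For Lcn2 and Timp1 most of the remaining mice were at 0 on both sides. The 5 PTE- mice without 1 of the 6 libraries still included a8_9 and a9_15. Their contralateral libraries had 293 and 161 well-expressed genes at 3 counts or less. In the 5 mice, Lcn2 was higher in 4 and lower in 0, and Timp1 higher in 3 and lower in 0. Hspb1 was higher in 1 of these mice and lower in 4. Serpina3n was also higher there in 3 of 4 PTE+ and 3 of 5 sham mice, with log2 fold changes of 0.86 ± 0.79 (SE) in PTE- and 0.94 ± 1.11 in PTE+ mice. Without mouse a8_11 the PTE- value was 1.40 (unadjusted edgeR p = 0.0475, adjusted p = 1.0). Without the mice that had a library that lost genes it was 1.31 (unadjusted edgeR p = 0.0177, adjusted p = 0.887). These fits did not pair the libraries of a mouse. Hspb1 was higher there in 1 of 4 PTE+ and 3 of 5 sham mice. Cp was higher there in 4 of 5 sham mice, with a log2 fold change of 0.46 ± 1.0 (SE), and in 2 of 3 without the mice that had a library that lost genes (0.26).

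Osmr was lower on the ipsilateral side in sham mice and mixed in injured mice. It was lower on the ipsilateral side in 5 of 5 sham mice, from 11.3, 38.3, 14.2, 7.64 and 13.9 CPM contralaterally to 6.87, 16.3, 0, 2.72 and 4.00 CPM in the same order of mice, with p = 0.0625 by the exact paired permutation test, the smallest that 5 mice allow. The ipsilateral 0 came from a9_9 and the contralateral 38.3 from a8_16, both libraries that lost genes, and without these mice Osmr was lower in 3 of 3, where the test cannot go below 0.25. It was higher on the ipsilateral side in 5 of 8 PTE- and 3 of 4 PTE+ mice. The side difference of injured against sham mice was 2.17 ± 1.82 (SE) on the log2 scale (unadjusted edgeR p = 0.244, adjusted p = 1.0), with p = 0.0558 by the exact permutation test. Without the mice that had a library that lost genes, the side difference was 2.27 (unadjusted edgeR p = 0.146) and the sham value −1.29 (p = 0.329). With all libraries the fitted sham value was −1.51 ± 1.51 (SE) and −2.06 with the replicate block for mouse.

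For Lcn2 the side difference of injured against sham mice had an unadjusted edgeR p = 0.00414, with a log2 difference of 13.19 ± 4.24 (SE) and an adjusted p of 1.0. This rested on contralateral sham a9_10, which had 205 counts (4.70 CPM) while all other sham libraries were at 0. Without that mouse the value was 4.76 (unadjusted p = 0.9997), and within sham mice the log2 fold change between sides moved from −8.43 (unadjusted p = 0.0184) to 0. With the mouse as a replicate block the side difference was 7.31 (unadjusted p = 0.086) and the sham value −2.54 (p = 0.168). DESeq2 called both, with adjusted p = 1.53e-06 and 1.24e-06. With the block in DESeq2 the adjusted p were 0.000219 and 0.000532, where 0.667% and 0.375% of all genes were called. By the exact permutation test the side difference had p = 0.0957.

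**Figure D5:**
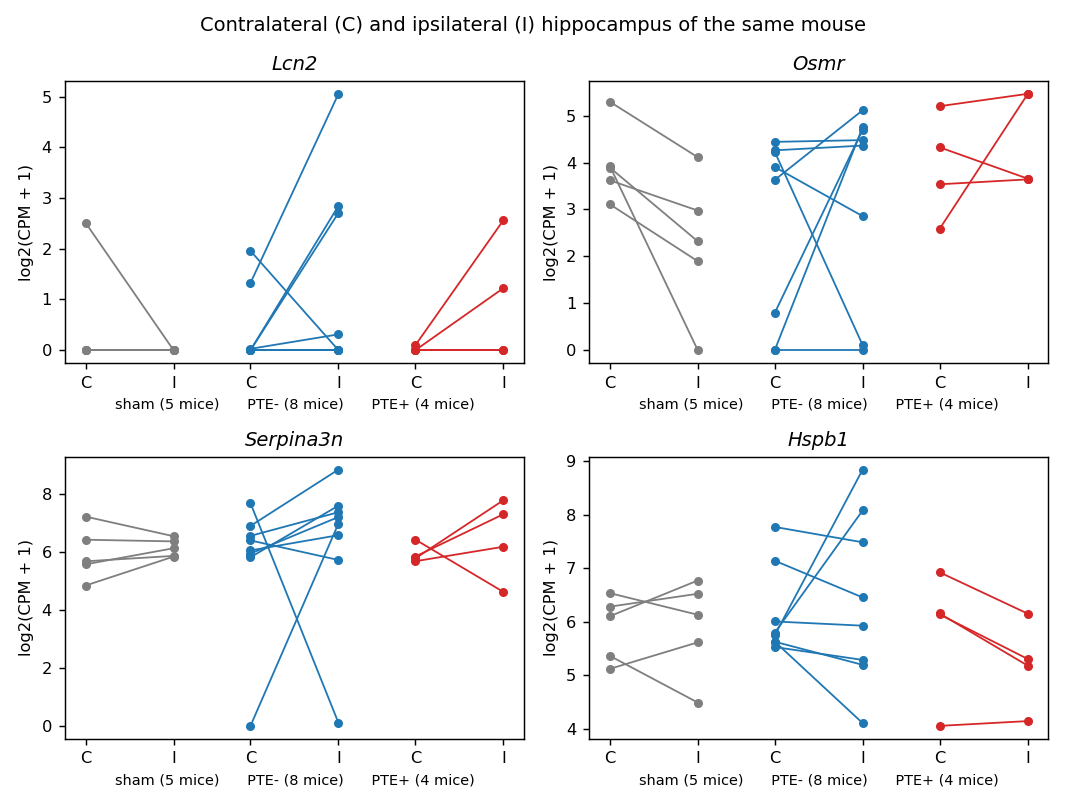
log2(CPM + 1) of Lcn2, Osmr, Serpina3n and Hspb1 in the contralateral (C) and ipsilateral (I) hippocampus, with a line for each of the 5 sham, 8 PTE- and 4 PTE+ mice that have both libraries. All 5 sham lines of Osmr fall from C to I, and the single sham mouse with contralateral Lcn2 is a9_10 (4.70 CPM).

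The signals and partners of the members were measured in the same fits, from a list of 33 ligands, receptors, substrates and partners, of which 27 were tested on the ipsilateral side. None passed an adjusted p of 0.05 in edgeR. Over this and the other lists and all 10 comparisons, 33 of 1103 tests had an unadjusted p under 0.05, beside 1.23% to 4.56% of all genes by comparison. The smallest adjusted p was 0.545, so that the genes named here are descriptions chosen by the unadjusted p. At an unadjusted p under 0.05, 1 was higher in PTE- versus sham (all genes, 1.58%), 1 in PTE+ versus sham (1.66%), and 2 were lower in PTE+ versus PTE- (1.75%). The list medians were 0.04, 0.08 and 0.07. The gene with an unadjusted p under 0.05 in both comparisons with sham was Lrp2 (megalin), a receptor for lipocalin 2 that the choroid plexus also expresses. It was listed at 0 in the 5 sham libraries and exceeded 3 counts in 4 of 8 PTE- and 1 of 4 PTE+ libraries. Like Lcn2 and Timp1, Lrp2 met the filter on low counts only through libraries of injured mice, so that these calls are no support for a difference. Slc22a17, the other lipocalin 2 receptor, was abundant and even, at 623 ± 188 CPM (SD, n = 5) in ipsilateral sham, 536 ± 111 (n = 8) in PTE- and 528 ± 81.8 (n = 4) in PTE+ libraries.

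The 2 genes with lower values in PTE+ than PTE- (adjusted p = 1.0 for both in edgeR) were Cryab, a small heat shock protein related to Hspb1, with a log2 fold change of −0.96 ± 0.45 (SE, unadjusted edgeR p = 0.047), and Cebpd, a transcription factor of the acute phase response, with −1.54 ± 0.68 (p = 0.0359). Of the partners of Osmr, Il6st averaged 89.3 ± 37.6 CPM (SD, n = 5), 97.1 ± 66.4 (n = 8) and 110 ± 49.2 (n = 4) in ipsilateral sham, PTE- and PTE+ libraries. Stat3 averaged 209 ± 64.7, 178 ± 60.1 and 171 ± 4.10 in the same order. On the contralateral side Il6st was the single gene of 27 with an unadjusted edgeR p under 0.05 for PTE- versus sham, beside 1.54% of all genes. Its value was 1.02 on the log2 scale (p = 0.0402, adjusted p = 1.0), beside a list median of 0.01. Between the hemispheres of PTE- mice, 2 of 29 had an unadjusted edgeR p under 0.05, beside 4.56% of all genes, in the fit that did not pair the libraries of a mouse. They were the kinase Jak1 at 0.71 (p = 0.0081, adjusted p = 0.549) and Cd74, a partner of Cd44, at 4.27 (p = 0.0324, adjusted p = 0.909). The ligand oncostatin M (Osm) exceeded 3 counts in 1 ipsilateral library of each group, and Il6 in none.

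The 3 other pan-reactive genes, Gfap, Vim and Cxcl10, also had higher fitted levels in ipsilateral PTE- than in sham mice. Vim, an intermediate filament, was higher in PTE- than in sham by 1.75 ± 0.62 (SE) on the log2 scale (unadjusted edgeR p = 0.0116, adjusted p = 1.0), Gfap by 0.87 ± 0.48 (p = 0.0843) and the chemokine Cxcl10 by 3.68 ± 2.18 (p = 0.108). The unadjusted p was thus under 0.05 for 1 of 3, beside 1.58% of all genes. Of 10 tested A2 genes, 9 were higher in PTE- than in sham and 9 were lower in PTE+ than in PTE-, with medians of 1.196 and −0.96, and none had an unadjusted p under 0.05. The summed level of the 12 listed A2 genes was highest in PTE- a8_11 (990 CPM), a library that lost genes, and a9_13 (835 CPM). The PTE- median was 386 CPM. Values of this list without these libraries are not given. Of 11 tested A1 genes, 8 were higher in PTE- than in sham, with a median of 0.45, and again none had an unadjusted p under 0.05. The highest summed level of the 3 other pan-reactive genes was that of a9_13, 4588 CPM beside a median of 1488 in its group.

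Markers of cells were compared on the ipsilateral side as well, and none passed an adjusted p of 0.05 in edgeR. All 10 astrocyte markers had lower fitted levels in PTE+ than in sham and 8 of 10 in PTE- than in sham. Aldh1l1 and Aldoc, 2 of the 10, had an unadjusted edgeR p under 0.05 in both, beside 1.66% and 1.58% of all genes. The summed level of the 10 markers ran from 18960 to 35870 CPM in sham, 10780 to 30230 in PTE- and 19470 to 26470 in PTE+. The 6 ependymal and choroid plexus markers were all higher in PTE- than in sham, with sums of 137 to 5885 CPM in PTE- beside 37.9 to 567 in sham and 59.4 to 702 in PTE+, and the sums were high in a8_11 (5885) and a9_12 (4746). The 8 mural or fibroblast markers, of a cell class that also expresses Timp1 and Cd44, had a median log2 fold change of 1.14 in PTE- versus sham. Of these, 5 of 8 were higher, and 1 of 8, Dcn, had an unadjusted edgeR p under 0.05, beside 1.58% of all genes. The summed levels of the 8 markers were 373 to 1564, 339 to 995 and 494 to 803 CPM in PTE-, sham and PTE+. Their sum was 373 CPM in a9_13, the lowest of the PTE- libraries, and 1564 in a9_16, the highest. The summed level of the 10 microglial markers, which in a9_13 was the highest of the PTE- libraries, was 157 to 1069 CPM in PTE-, 130 to 1161 in sham and 70.6 to 721 in PTE+. Oligodendrocyte lineage markers summed to 711 to 1871 CPM in PTE-, 675 to 2764 in sham and 706 to 1315 in PTE+, and perivascular or infiltrating macrophage markers did not exceed 27.2 CPM. Neuronal markers summed to 38.2 to 856 CPM in PTE-, 85.9 to 561 in sham and 136 to 842 in PTE+, and endothelial markers to 104 to 1429, 189 to 724 and 20.9 to 1301 in the same order. The part of these cells in the members' values was not tested.

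Across all 37 libraries, which share depth, losses of genes and composition, members were weakly related to each other. Among the 7 members detected in at least 19 libraries, the highest Spearman correlation of log2(CPM + 1) between members was 0.44, for Serpina3n and Aspg, and the lowest was −0.34, for Hspb1 and Cp. The genes most like Serpina3n were Ctf1 (0.64), 6330403K07Rik (0.61) and Rab3ip (0.59). Those most like Hspb1 were Tmsb4x (0.73), Rps19 (0.71) and Btf3 (0.71), those most like Osmr were Pik3cd (0.70), Morc3 (0.68) and Pcdhgb1 (0.66), and those most like Cd44 were Ccdc40 (0.73), Itch (0.71) and Tsnaxip1 (0.69). S1pr3 was most like Exd2 (0.59), Lrfn4 (0.56) and Flywch1 (0.55), Cp was most like Gpatch8 (0.74), Gm20605 (0.70) and Tchp (0.70), and Aspg was most like Il16 (0.64), Cradd (0.62) and Nt5dc2 (0.61). These are descriptions over libraries of all groups.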

How the data were processed

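Hippocampal astrocytes of 20 mice gave 37 libraries. Per the labels, the authors trimmed reads with Trim Galore 0.6.4 and counted them with RSEM 1.2.28 and Bowtie2 2.4.1 on mm10; the annotation release is not given in the sources used here. The deposited expected counts per gene, which are whole numbers in the files, and the deposited TPM were used, 1 table of each per hemisphere. RSEM divides reads shared by similar genes, and amplification of little RNA can lose transcripts, so that a listed 0 need not be absence. The submitters' notes also name DESeq2 1.36.0.

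Gene symbols and positions came from GENCODE vM21 and promoters from RefSeq (GRCm38.p6), matched by symbol, with 11 promoters for the 10 members. No protein sequences were used here. Group differences were tested with edgeR 4.0.16 (quasi-likelihood, TMM, low counts filtered by filterByExpr, R 4.3.3), in 1 fit per hemisphere for group differences and 1 fit over the 17 mice with both hemispheres for side differences, with Benjamini-Hochberg adjustment over all genes tested. Single members were also tested by exact two-sided permutation of log2(CPM + 1), which cannot go below 0.0079 for ipsilateral PTE+ versus sham, 0.125 between the hemispheres of PTE+ mice and 0.0625 in sham mice. CPM are TMM-scaled. The limit of detection was set at 3 counts per library and covers counting error only.

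The libraries of both hemispheres come from the same animal, so that the mouse pairs them: the median correlation of deviations from the group means was 0.07 within mice (17 pairs) and −0.02 between mice (88 pairs). The mouse as a replicate block was an alternative, beside other normalization, filters, tools, pseudocounts, the name prefix as a covariate and leaving out each library. P-values of group comparisons within a hemisphere and of the permutation tests measure the spread between mice. The main edgeR fit of side differences did not pair the libraries of a mouse, so that its p-values measure the spread between libraries. All 10 members were named, whatever their values, together with genes of the other lists at an unadjusted p under 0.05 and, for each member over 3 counts in at least 19 libraries, the 3 genes most like it. The members and lists were chosen with earlier results of these data known.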

Additional observations from a re-analysis of the deposited data

Results flagged for a closer look

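In 13 of the 56 member and group sets that could be tested, 1 library stood apart from the others of its group by Dixon's criterion on log2(CPM + 1). For normally distributed values, chance alone meets this criterion in about 1 in 20 groups. In 8 sets the library was low. On the contralateral side these were Serpina3n in PTE- a9_14 (0.0 CPM), S1pr3 (0.0), Cd44 (0.0) and Cp (18.84) in sham a8_16, and Hspb1 in PTE+ a9_19 (15.65). On the ipsilateral side they were Serpina3n (0.0763) and Aspg (0.0) in PTE- a8_11, and Aspg in sham a9_9 (0.0). Of these 8 values, 7 came from the 6 libraries in which over 400 well-expressed genes were at the limit of detection.

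In the other 5 sets the library was high. They were Lcn2 in contralateral sham a9_10 (4.704 CPM), Steap4 in contralateral sham a8_15 (3.491), Steap4 in ipsilateral PTE+ a9_18 (15.87), Timp1 in contralateral PTE- a8_11 (4.747) and Timp1 in ipsilateral PTE+ a9_17 (0.8773). In 4 of these 5 sets every other library of the group was at or under 3 counts, and in the Timp1 set of contralateral PTE- mice a9_13 was at 1.04 CPM.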

How the results depend on the processing

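The number of members past an adjusted p of 0.05, which was 0 in all 10 comparisons by edgeR, differed in 6 of 196 alternatives, all by DESeq2. DESeq2 called 1 member, Lcn2, in ipsilateral PTE- versus sham, in ipsilateral PTE+ versus sham, between the hemispheres of sham mice and in the side difference, and again 1 in the last 2 with the mouse as a replicate block. The cause was not tested. With the replicate block in edgeR the number called was 0 in all 4 hemisphere comparisons, and the genes with an unadjusted p under 0.05 numbered 120, 315, 52 and 113 for PTE+, PTE-, sham and the side difference, beside 461, 717, 323 and 378 without it. Leaving out each library in turn gave 0 to 0 members called in every comparison. Over all genes, DESeq2 called 23, 26 and 31 genes in the contralateral and 63, 19 and 63 in the ipsilateral comparisons (PTE+ versus PTE-, PTE- versus sham, PTE+ versus sham), beside 1, 0, 0, 0, 0 and 0 by edgeR. Limma with voom weights called 2 genes in ipsilateral PTE- versus sham and 3 between the hemispheres of PTE- mice. Steap4 in ipsilateral PTE- versus sham reversed to −4.81 with the name prefix as a covariate, and its cause was not tested. The alternatives without the 6 libraries that lost genes and without mouse a9_13 were chosen after seeing the data. In the hemisphere comparisons, the former left out both sides of each mouse with such a library. Detection covered 271 of the member and library pairs at over 3 counts, 277 at 1 count or more and 261 at 1 TPM or more. Depth was at least 25371887 counts in every library, yet genes at 0 in the 6 libraries named above could not be told apart from genes not captured.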
